A study of Rattus norvegicus with 12 samples.

Results

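The fibrillar collagen genes were examined in whole rat kidney in 2 models of renal fibrosis (RF). The set holds 10 genes chosen by symbol: Col1a1, Col1a2, Col2a1, Col3a1, Col5a1, Col5a2, Col5a3, Col11a1, Col11a2 and Col24a1. Of the 22132 entries of the control and adenine table, 9 were these genes, and of the 32623 entries of the sham and UUO table, 10 were, each listed once. Col1a2 was not analysed here in the control and adenine samples. All kidneys came from wild-type male Sprague-Dawley (SD) rats bought at 8 weeks of age, with 3 rats per group. The adenine group received adenine at 220 mg/kg per day by gavage for 3 weeks and the control group received saline. The UUO group (unilateral ureteral obstruction) had the left ureter tied and the kidney was taken 2 weeks later, whereas the ureter of the sham group was not tied. Poly(A) RNA was sequenced, and expression was given as FPKM, a fragment count divided by gene length and library size, so that levels can be compared between genes of different length.

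Fibrillar collagens are the rope-forming proteins of connective tissue. Each molecule is a triple helix of 3 alpha chains, which is made in the endoplasmic reticulum, trimmed outside the cell and crosslinked into fibrils. Col1a1 and Col1a2 encode the chains of type I collagen, and Col3a1 encodes the single chain of type III, and both types build up in the interstitium of a scarring kidney, mainly from fibroblasts and myofibroblasts. The type V chains (Col5a1, Col5a2, Col5a3) and the type XI chains (Col11a1, Col11a2) are minor chains that start fibrils and limit their width, Col2a1 is the main collagen of cartilage, and Col24a1 is a minor chain known from bone.

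Sequences just upstream of the genes are shown for a chain called as upregulated in UUO (Col1a2), a type V chain upregulated in both models (Col5a3) and the chain called as downregulated in the adenine model (Col11a2). RefSeq promoter entries on build GRCr8, from 250 bases before to 50 bases after the listed start, matched 7 of the 10 genes: Col1a2, Col5a1, Col5a2, Col5a3, Col11a1, Col11a2 and Col24a1. Col1a1, Col2a1 and Col3a1 had no matched entry. The windows were searched on both strands for CCAAT (reverse ATTGG), the TATA box letters TATAAA (reverse TTTATA) and the GC box letters GGGCGG (reverse CCGCCC). Matches are in capitals and are descriptions of letters only. The windows lie at chr4:33518307-33518606 (plus strand) for Col1a2, chr8:27625899-27626198 (minus strand) for Col5a3 and chr20:4817599-4817898 (minus strand) for Col11a2.
Col1a2: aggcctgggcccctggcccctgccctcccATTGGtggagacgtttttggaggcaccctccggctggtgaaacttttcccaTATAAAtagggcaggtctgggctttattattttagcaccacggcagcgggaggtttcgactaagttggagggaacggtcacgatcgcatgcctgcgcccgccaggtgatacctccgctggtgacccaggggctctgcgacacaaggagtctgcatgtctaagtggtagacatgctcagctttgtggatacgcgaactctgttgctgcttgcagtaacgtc
Col5a3: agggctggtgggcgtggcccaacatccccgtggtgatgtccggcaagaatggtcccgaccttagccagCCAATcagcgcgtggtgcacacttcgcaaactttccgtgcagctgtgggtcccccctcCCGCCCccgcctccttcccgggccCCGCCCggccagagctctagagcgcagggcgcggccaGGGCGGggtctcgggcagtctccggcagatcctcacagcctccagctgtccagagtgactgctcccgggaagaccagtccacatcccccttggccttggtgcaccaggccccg
Col11a2: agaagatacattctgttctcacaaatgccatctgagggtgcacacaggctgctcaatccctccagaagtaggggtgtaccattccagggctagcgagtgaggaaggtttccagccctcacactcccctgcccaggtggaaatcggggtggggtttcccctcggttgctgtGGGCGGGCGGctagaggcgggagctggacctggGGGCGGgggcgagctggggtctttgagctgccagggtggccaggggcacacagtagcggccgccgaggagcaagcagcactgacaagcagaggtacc
The Col1a2 window held 1 CCAAT, on the reverse strand, and 1 TATAAA. The Col5a3 window held 1 CCAAT and 3 GGGCGG, and the Col11a2 window held 3 GGGCGG, of which 2 overlapped. Of 27457 RefSeq promoters of the same length, 37.7% held CCAAT, 14.3% held TATAAA and 34.9% held GGGCGG. Col5a2 held none of the 3 in its window, Col5a1 held 1 GGGCGG, and Col11a1 held 2 CCAAT and 3 GGGCGG. In RefSeq, Col3a1 and Col5a2 are neighbours on chromosome 9 with 0 coding genes between them.

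DEGs were entries that passed a Benjamini-Hochberg adjusted p of 0.05 in limma and moved by 2 or more, up or down, on the log2(FPKM + 0.1) scale, a scale that understates the change of low genes. An entry was tested when its FPKM reached 0.5 in at least 3 of the 6 samples of its table. In the adenine model, 8 of the 9 genes were tested; 6 were upregulated (Col1a1, Col3a1, Col5a1, Col5a2, Col5a3, Col24a1), 1 was downregulated (Col11a2) and Col11a1 was not called. Of all 15029 entries tested there, 10.7% were upregulated DEGs and 5.03% were downregulated DEGs. In the UUO model all 10 genes were tested; 7 were upregulated (the same 6 and Col1a2) and 0 were downregulated. Of the 15043 entries tested there, 13.2% were upregulated DEGs and 4.21% were downregulated DEGs. All 3 model rats lay above all 3 reference rats for 6 tested chains under adenine and for 8 under UUO, against 45% and 60% of all tested entries. Col24a1 in both models and Col5a3 in UUO reached 0.5 FPKM in their model rats alone. For these chains the direction and the lack of overlap were therefore fixed by being tested. The same holds for some genes counted below, such as Itga2 in both models, Loxl4 in adenine and Mmp13 in UUO. The median log2 fold change of the tested chains was 3.02 for adenine and 4.0 for UUO. The median over all tested entries was 0.30 and 0.62, a shift that scaling by the median of ratios between samples brought to 0.0056 and 0.023. The 6 and the 7 upregulated chains were still called under that scaling. In RNA from a whole kidney, fewer cells of a type and less RNA per cell cannot be told apart, and the same holds for more.

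**Figure D1:**
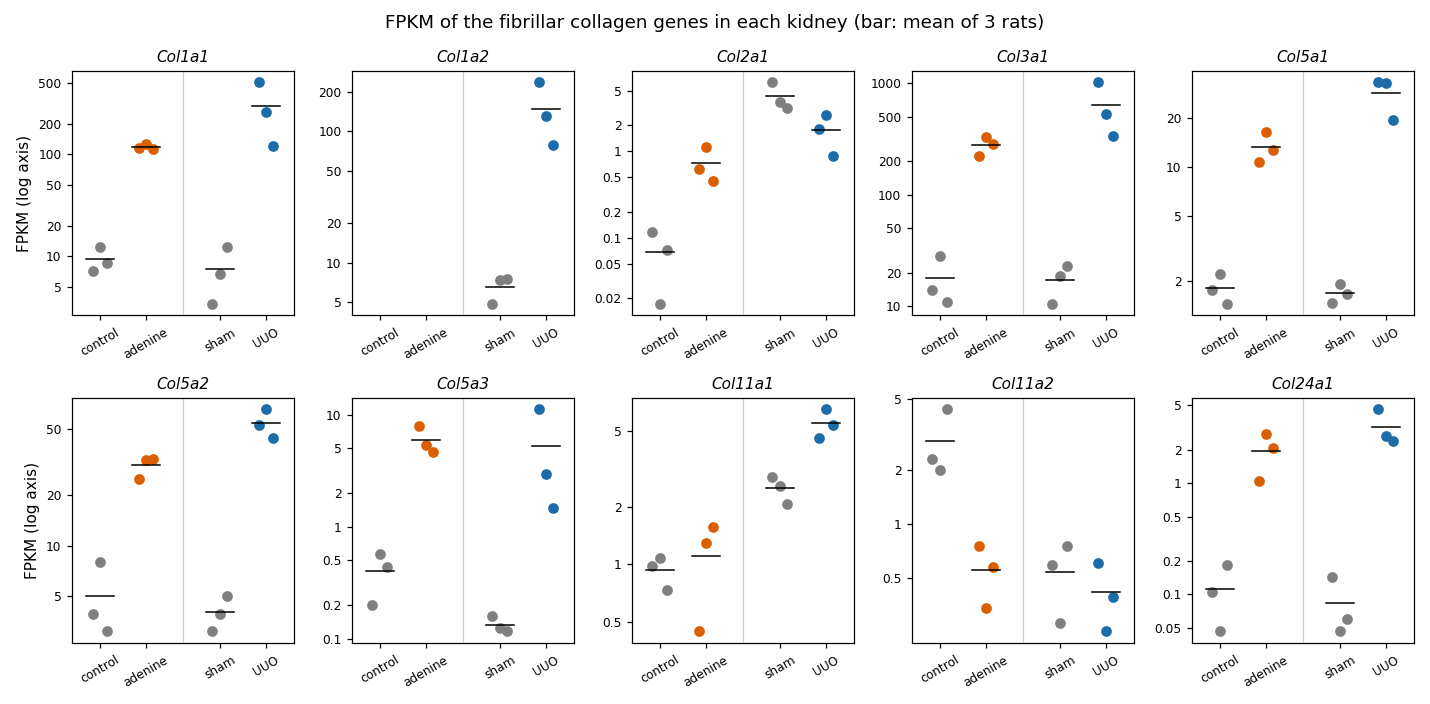
FPKM (log axis, a separate range in each panel) of the 10 fibrillar collagen genes in each kidney, with 3 control, 3 adenine, 3 sham and 3 UUO rats (points) and the group mean (bar). Col1a1, Col3a1, Col5a1, Col5a2, Col5a3 and Col24a1 lay higher in every adenine rat than in any control rat and in every UUO rat than in any sham rat, and Col11a2 lay lower in every adenine rat than in any control rat.

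RNA of Col1a1, a chain of type I collagen, the main collagen of scar tissue, rose in both models. The other type I chain was analysed in the sham and UUO rats alone. Col1a1 was at 7.15, 12.2 and 8.49 FPKM in the control rats and at 117, 127 and 112 FPKM in the adenine rats. The groups stood far apart and the adenine rats were close to each other, with a mean of 9.28 ± 2.62 FPKM against 119 ± 7.42 FPKM (SD, n = 3), a 12.8-fold ratio (log2 fold change 3.70, SE 0.20, limma adjusted p = 3.68e-05). In the sham rats Col1a1 was at 3.37, 6.69 and 12.2 FPKM, and in the UUO rats at 517, 262 and 122 FPKM. Rat 1 of the UUO group was the highest and rat 3 the lowest, and the lowest UUO rat still exceeded every sham rat (log2 fold change 5.27, SE 0.62, limma adjusted p = 0.000346). Without rat 1 of the UUO group the log2 fold change of Col1a1 was 4.76, and with any other rat left out it was called as well, up to 5.80. Col1a2, which encodes the other type I chain, was at 4.83, 7.33 and 7.56 FPKM in the sham rats and at 237, 130 and 77.8 FPKM in the UUO rats. The UUO rats took the same order as for Col1a1, and the mean was 22.5-fold that of sham (log2 fold change 4.35, SE 0.40, limma adjusted p = 0.000120).

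Col3a1, the type III chain, was the most abundant of the set in every sample. It was at 13.9, 28.4 and 11 FPKM in the control rats and at 221, 326 and 282 FPKM in the adenine rats. The adenine mean was 276 ± 53.0 FPKM (SD, n = 3), 15.5-fold that of control (log2 fold change 4.05, SE 0.35, limma adjusted p = 0.000164). In the sham rats Col3a1 was at 10.4, 18.8 and 22.7 FPKM and in the UUO rats at 1022, 531 and 335 FPKM. The groups did not overlap, and the UUO mean of 629 ± 354 FPKM (SD, n = 3) was 36.4-fold that of sham (log2 fold change 5.10, SE 0.45, limma adjusted p = 0.000105).

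All 3 type V chains, which sit inside type I fibrils and set their width, were upregulated in both models. Col5a1 was at 1.76, 2.21 and 1.45 FPKM in the control rats and at 10.7, 16.3 and 12.6 FPKM in the adenine rats (log2 fold change 2.80, SE 0.22, limma adjusted p = 0.000123). In the sham rats it was at 1.48, 1.92 and 1.66 FPKM and in the UUO rats at 33.2, 32.5 and 19.5 FPKM (log2 fold change 3.96, SE 0.23, limma adjusted p = 2.62e-05). Every model rat exceeded every reference rat. Col5a2, whose chain joins that of Col5a1 in the common type V molecule, was at 3.94, 7.95 and 3.08 FPKM in control and at 25.1, 32.3 and 33.0 FPKM in adenine (log2 fold change 2.68, SE 0.34, limma adjusted p = 0.000716). In sham it was at 3.11, 3.93 and 5.03 FPKM and in UUO at 52.6, 65.2 and 43.9 FPKM (log2 fold change 3.72, SE 0.21, limma adjusted p = 2.49e-05). For Col5a2, unlike type I and type III, rat 2 was the highest of the UUO group. Col5a3, the scarcest type V chain, was at 0.201, 0.568 and 0.436 FPKM in control and at 8.00, 5.32 and 4.61 FPKM in adenine (log2 fold change 3.64, SE 0.36, limma adjusted p = 0.000278). In sham it was at 0.158, 0.125 and 0.116 FPKM and in UUO at 11.2, 2.98 and 1.48 FPKM (log2 fold change 4.03, SE 0.68, limma adjusted p = 0.00175). The UUO rats were spread widely, with rat 1 far above the others, and without that rat the log2 fold change was 3.25 and the limma adjusted p was 0.00137.

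Col24a1, a fibrillar chain known from developing bone, was near 0 in both reference groups and rose in both models. It was at 0.106, 0.0468 and 0.183 FPKM in control and at 1.05, 2.77 and 2.07 FPKM in adenine (log2 fold change 3.24, SE 0.44, limma adjusted p = 0.000951). In sham it was at 0.145, 0.0464 and 0.0601 FPKM and in UUO at 4.63, 2.65 and 2.38 FPKM (log2 fold change 4.15, SE 0.37, limma adjusted p = 0.000107). The groups stood apart in both tables at low levels. With a pseudocount of 1 the log2 fold changes were 1.37 and 1.93, under the fold threshold in both.

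The type XI chains, which cartilage uses in place of type V, did not follow the other chains. Col11a2 was at 2.31, 2.02 and 4.38 FPKM in the control rats and at 0.753, 0.341 and 0.578 FPKM in the adenine rats, with no overlap (log2 fold change -2.16, SE 0.38, limma adjusted p = 0.00301). That call lies close to the fold threshold: without rat 3 of the control group the log2 fold change was -1.83 and without rat 2 of the adenine group it was -1.90, and neither was called. Nor was it called with a pseudocount of 1 (-1.29) or with equal FPKM sums (-1.92). In the UUO table Col11a2 was at 0.595, 0.282 and 0.759 FPKM in sham and at 0.609, 0.253 and 0.395 FPKM in UUO, and the groups overlapped (log2 fold change -0.29, SE 0.44, limma adjusted p = 0.566). Under quantile scaling its log2 fold change was -1.10 (limma adjusted p = 0.0486), short of the fold threshold. Under median-of-ratios scaling it did not pass the filter and was not tested. Col11a1 was at 0.976, 1.08 and 0.735 FPKM in control and at 0.445, 1.29 and 1.58 FPKM in adenine. These groups overlapped, and the fitted log2 fold change was 0.087 (SE 0.45, limma adjusted p = 0.882), with a sign that turned negative under median-of-ratios and quantile scaling. In sham Col11a1 was at 2.88, 2.59 and 2.08 FPKM and in UUO at 4.59, 6.53 and 5.42 FPKM. Each UUO rat exceeded each sham rat, and the log2 fold change was 1.10 (limma SE 0.20, adjusted p = 0.00236). This was below the fold threshold, and the adjusted p was 0.0705 under median-of-ratios scaling.

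Col2a1, the cartilage collagen, was near 0 in the control rats and at a few FPKM in the sham rats. It was at 0.117, 0.0169 and 0.0722 FPKM in control and at 0.620, 1.13 and 0.450 FPKM in adenine, under the level needed for the limma fit. The 2 groups did not overlap, and the two-sided exact permutation test gave p = 0.1, the smallest value that 3 against 3 rats allow. Where the alternatives let Col2a1 into the limma fit it was called as upregulated, with a log2 fold change of 2.27 without the filter (adjusted p = 0.00545) and 2.43 with equal FPKM sums (adjusted p = 0.00247), which made 7 upregulated chains in adenine. In sham Col2a1 was at 6.33, 3.70 and 3.15 FPKM and in UUO at 1.79, 2.58 and 0.867 FPKM, also without overlap but with the UUO rats lower. The log2 fold change was -1.34 (SE 0.43, limma adjusted p = 0.0272), which is under the fold threshold, and the adjusted p was 0.0517 without rat 1 and 0.0582 without rat 3 of the UUO group, and 0.0809 without rat 1 and 0.0537 without rat 2 of the sham group. Under median-of-ratios scaling the log2 fold change was -1.91 (adjusted p = 0.00921), and under quantile scaling it was -2.13 (adjusted p = 0.00651), which passed both thresholds. Markers of cartilage were checked beside it, and 6 of the 7 listed were in the control and adenine table and 7 in the sham and UUO table. Their summed level was 6.13 to 10.4 FPKM in control, 6.56 to 10.7 FPKM in adenine, 8.54 to 15.0 FPKM in sham and 14.9 to 18.2 FPKM in UUO, most of it from Sox9, which kidney epithelium also uses. Acan, Matn3 and Hapln1 stayed under 0.5 FPKM in all 12 samples. Matn1 fell in UUO (log2 fold change -3.03, limma adjusted p = 0.000338) and Comp rose in adenine (log2 fold change 2.65, limma adjusted p = 0.00128). For these fits Matn1 reached 0.5 FPKM in the sham rats alone and Comp in the adenine rats alone. Both directions were therefore fixed by being tested. Matn1 was also lower in every adenine rat than in any control rat (log2 ratio of mean FPKM -3.07), opposite to Col2a1. It was under the level needed for the limma fit there. Comp overlapped between sham and UUO. The part of these markers in the Col2a1 values was not tested.

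Col27a1, which belongs to the same fibrillar class and is not one of the 10 genes, was at 11.2, 5.16 and 12.3 FPKM in control and at 3.76, 4.36 and 4.85 FPKM in adenine. Every adenine rat was below every control rat (log2 fold change -1.04, SE 0.33, limma adjusted p = 0.0321), short of the fold threshold, and the adjusted p ranged up to 0.0969 when single rats were left out. In the UUO table it was at 4.70, 2.64 and 4.52 FPKM in sham and at 4.19, 3.52 and 3.95 FPKM in UUO, with overlap. The log2 fold change was 0.016 (SE 0.24, limma adjusted p = 0.958), and its sign turned negative under median-of-ratios and quantile scaling.

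**Figure D2:**
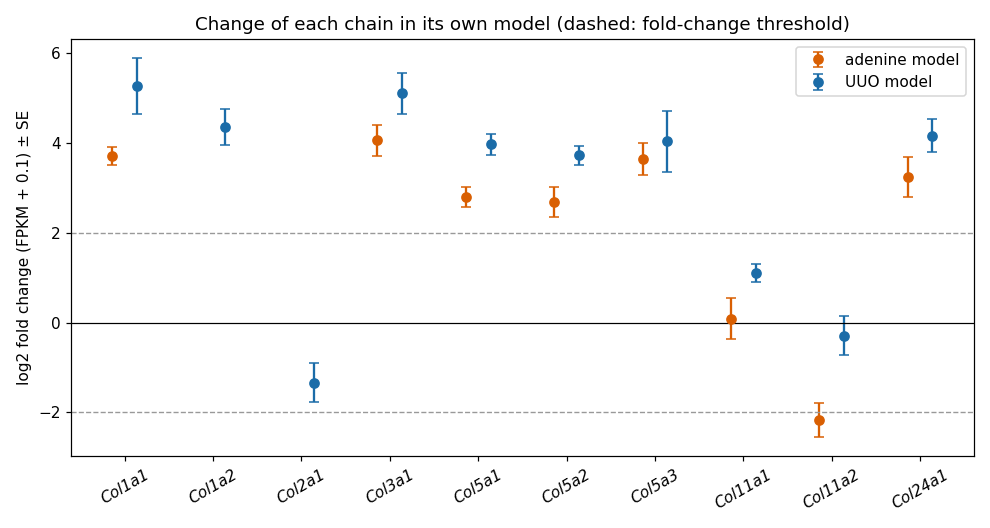
log2 fold change on the log2(FPKM + 0.1) scale (± SE from limma, n = 3 per group) of each tested chain under adenine (orange) and under UUO (blue), with the fold threshold of 2 in both directions as dashed lines. The chains of types I, III and V and Col24a1 lie above the upper line in each model they were tested in, Col11a2 lies below the lower line in adenine only, and Col11a1 in adenine lies near 0, where its sign depends on the scaling.

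The size of the change was then compared between the models by subtracting the adenine log2 fold change from the UUO log2 fold change, each taken within its own table. Across the 13486 genes tested and listed once in both tables, 1.82% differed by at least 2 towards UUO and 1.07% towards adenine, and 27% had an adjusted p under 0.05 at any size. Of the 8 chains that could be compared, 0 differed by at least 2, and 2 passed the adjusted p, a share close to the 27% of all genes. For Col5a1 the UUO change exceeded the adenine change by 1.16 (SE 0.32, t test of the difference, adjusted p = 0.0184). For Col11a2 it did so by 1.87 (SE 0.58, same test, adjusted p = 0.0304). Neither held under quantile scaling (adjusted p = 0.0859 and 0.0558), and Col5a1 did not hold under median-of-ratios scaling (adjusted p = 0.0914). Without rat 1 of the UUO group the adjusted p was 0.05004 for Col5a1 and 0.0771 for Col11a2. The Col11a2 difference also missed the threshold without rat 3 of control (0.0673), rat 2 of adenine (0.0642), rat 2 of sham (0.0668) or rat 3 of UUO (0.0540). For Col1a1 the difference was 1.57 (SE 0.65, same test, adjusted p = 0.0871). It passed both thresholds without rat 3 of sham (2.02, adjusted p = 0.0416) and without rat 3 of UUO (2.10, adjusted p = 0.0256). The differences for Col3a1 (1.04, adjusted p = 0.187), Col5a2 (1.04, adjusted p = 0.0682), Col11a1 (1.01, adjusted p = 0.141), Col24a1 (0.92, adjusted p = 0.249) and Col5a3 (0.40, adjusted p = 0.732) did not pass.

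Chains were next compared with each other inside each kidney, since a ratio of 2 chains does not depend on how a sample was scaled. Type I collagen is usually built from 2 chains of Col1a1 and 1 of Col1a2. The Col1a1/Col1a2 ratio of FPKM was 0.698, 0.913 and 1.61 in sham and 2.18, 2.02 and 1.57 in UUO. UUO rats 1 and 2 stood above all sham rats and rat 3 lay just below the highest sham rat (log2 change 0.92, exact permutation p = 0.2). The Col5a1/Col1a1 ratio was 0.247, 0.181 and 0.170 in control and 0.0914, 0.129 and 0.112 in adenine. Every adenine rat had less Col5a1 per Col1a1 than any control rat (log2 change -0.84, exact permutation p = 0.1). In sham that ratio was 0.439, 0.287 and 0.136 and in UUO 0.0641, 0.124 and 0.160, with overlap (log2 change -1.25, exact permutation p = 0.2). The Col3a1/Col1a1 ratio was 1.95, 2.33 and 1.3 in control and 1.89, 2.57 and 2.50 in adenine (exact permutation p = 0.3), and 3.09, 2.80 and 1.86 in sham against 1.98, 2.03 and 2.74 in UUO (exact permutation p = 0.6). The Col5a1/Col5a2 ratio stayed between 0.278 and 0.631 in all 12 kidneys (exact permutation p = 0.7 in adenine and 0.4 in UUO). All 7 tests were two-sided, 0.1 is the smallest p that 3 against 3 allow, and the lowest adjusted p over the 7 was 0.467. No ratio passed, and with 3 rats per group this exact test cannot pass 0.05.

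**Figure D3:**
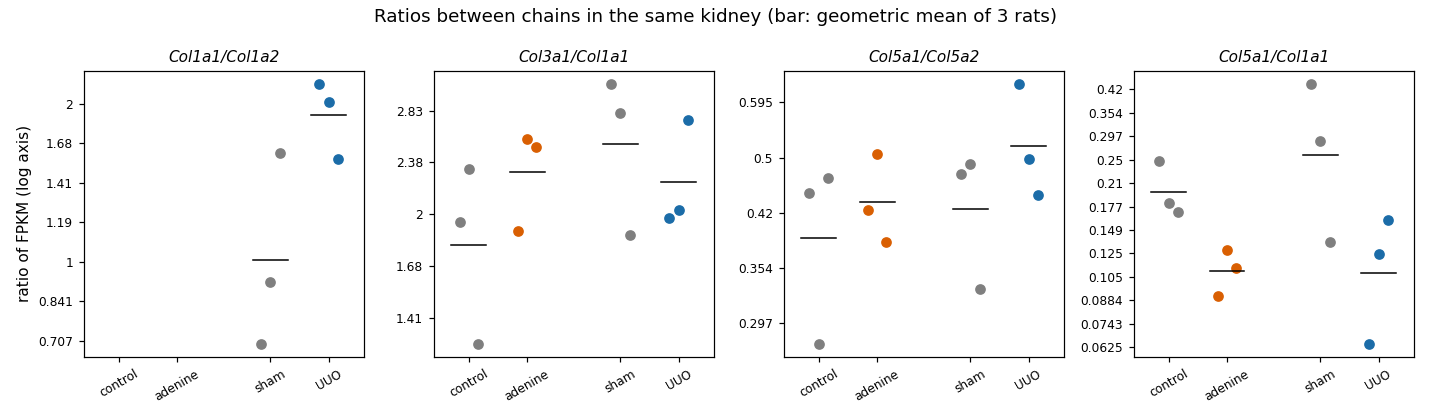
Ratio of the FPKM of 2 chains in the same kidney (log axis, a separate range in each panel) for Col1a1/Col1a2, Col3a1/Col1a1, Col5a1/Col5a2 and Col5a1/Col1a1, with 3 rats per group (points) and the geometric mean (bar). The adenine rats lie between 0.0914 and 0.129 for Col5a1/Col1a1, below the control rats at 0.170 to 0.247, and the groups overlap in the other comparisons.

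The make-up of the set by level was described over the 9 chains present in both tables. Their summed FPKM was 29.8 to 54.5 in control, 384 to 513 in adenine, 28.5 to 47.7 in sham and 530 to 1647 in UUO. Col3a1 supplied 36.9 to 52.1% of the sum in control and 57.5 to 63.6% in adenine, and 36.6 to 49.3% in sham against 58.6 to 63.1% in UUO. Col11a2 supplied 3.70 to 14.7% in control and 0.0666 to 0.196% in adenine, and Col2a1 supplied 6.60 to 22.2% in sham and 0.108 to 0.286% in UUO. In the other table of each, Col11a2 supplied 0.740 to 2.09% in sham and 0.0279 to 0.0745% in UUO, and Col2a1 supplied 0.0310 to 0.384% in control and 0.1002 to 0.220% in adenine, where the groups overlapped. With Col1a2 added, the sum was 33.3 to 55.3 FPKM in sham and 608 to 1884 FPKM in UUO.

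**Figure D4:**
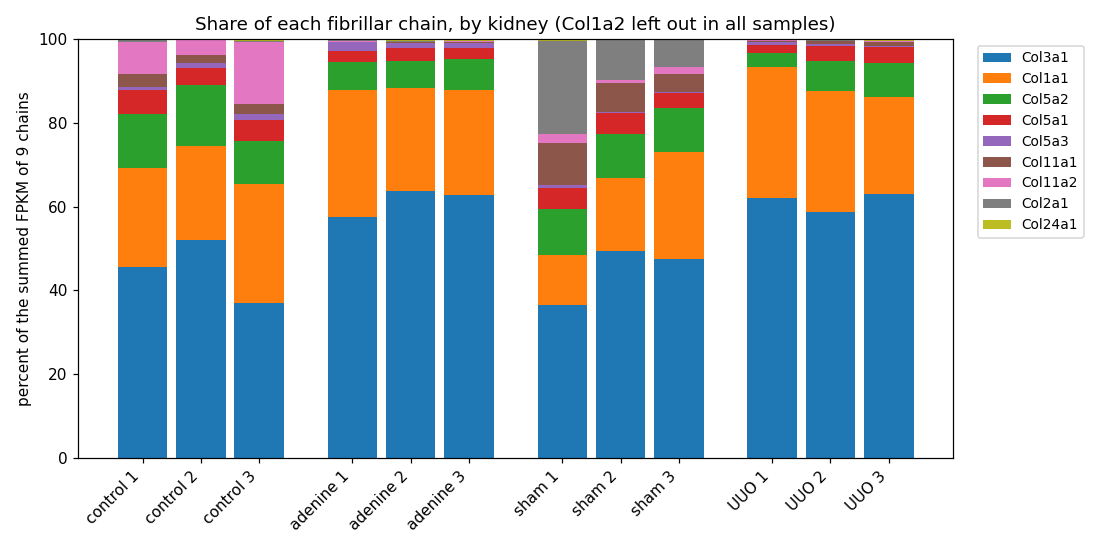
Share (percent) of each of 9 fibrillar chains in their summed FPKM, 1 bar per kidney and 3 bars per group, with Col1a2 left out of every bar. Col3a1 fills 36.6 to 52.1% of the bars of the reference kidneys and 57.5 to 63.6% of those of the model kidneys.

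In the order of mean FPKM, Col3a1 and Col1a1 stood first and second in all 4 groups. In the control group the ranges of the first 5 genes in that order, Col3a1, Col1a1, Col5a2, Col11a2 and Col5a1, overlapped from each gene to the next. Such ranges run across rats. Within each control rat Col3a1 exceeded Col1a1, and Col1a1 exceeded Col5a2. In the adenine group Col3a1, Col1a1, Col5a2, Col5a1, Col5a3 and Col24a1 followed each other without overlap, and from Col24a1 on Col11a1, Col2a1 and Col11a2 overlapped from each to the next. In the UUO group Col3a1, Col1a1 and Col1a2 overlapped from each to the next, and below them Col5a2 and Col5a1 stood apart. Within each UUO rat Col3a1 exceeded Col1a1, and Col1a1 exceeded Col1a2. Rats also differed within groups. UUO rat 1 was the highest of its group for 7 of the 10 genes and UUO rat 3 for 0, and control rat 2 was the highest of its group for 6 of the 9 genes. Without UUO rat 1 the same count of 7 genes was upregulated and 0 were downregulated. With any single rat left out, 6 were upregulated in adenine and 7 in UUO.

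Among genes outside the set, Adamts2, Col6a1, Htra3 and Igfbp6 had the profiles nearest to that of Col1a1. Nearness was the root mean square difference over the 12 samples of log2(FPKM + 0.1), centred on the control or sham mean, among 13486 genes, and it was 0.40, 0.47, 0.51 and 0.51 for these genes in that order. Col3a1 was nearer still at 0.34. Col5a3 stood at 0.80, Col5a1 at 0.92, Col24a1 at 0.93 and Col5a2 at 1.05, whereas Col11a1 stood at 2.86 and Col11a2 at 4.10. Adamts2, the protease that removes the amino-terminal propeptide of type I and type III procollagen, was at 0.406, 0.458 and 0.359 FPKM in control and 4.81, 6.44 and 6.07 FPKM in adenine, and at 0.206, 0.262 and 0.523 FPKM in sham and 18.2, 15.4 and 12.3 FPKM in UUO. All model rats lay above all reference rats in each table. In adenine this was fixed by the filter, since only the adenine rats reached 0.5 FPKM.

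The genes that make, trim, bind and degrade fibrillar collagen were counted next. Of the genes for chain hydroxylation and folding, 2 of 15 tested were upregulated in adenine and 4 of 16 in UUO, and 0 were downregulated in either, with a median log2 fold change of 1.20 and 1.37. The share called in adenine was near the 10.7% of all tested entries, and for UUO that share of all tested entries was 13.2%. At an adjusted p under 0.05 and any size, 13 of the 15 were higher in adenine and 14 of the 16 in UUO, against 39.6% and 56.1% of all tested entries, and P3h2, a prolyl 3-hydroxylase, was lower in adenine (log2 fold change -0.83, limma adjusted p = 0.0452). Fkbp10, a chaperone of procollagen, was at 1.36, 2.05 and 1.22 FPKM in control and 8.85, 10.9 and 10.7 FPKM in adenine (log2 fold change 2.67, limma adjusted p = 0.000140), and rose by a log2 fold change of 3.68 in UUO (limma adjusted p = 4.05e-05). P3h4, a partner of the lysyl hydroxylation machinery, rose in both models (log2 fold change 2.32 and 3.21). The collagen chaperone Serpinh1 had a log2 fold change of 1.43 in adenine, which was not called, and rose in UUO by 2.53. The subunit genes of prolyl 4-hydroxylase P4ha1, P4ha2 and P4hb were not called in either model, with log2 fold changes from 0.28 to 1.39.

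Of the genes for propeptide removal and crosslinking, 7 of 9 tested were upregulated in adenine and 9 of 11 in UUO. This compares with 10.7% and 13.2% of all tested entries. In either model 0 were downregulated, with a median log2 fold change of 2.41 and 2.90. Adamts2 rose most on average (log2 fold change 3.53 in adenine and 5.22 in UUO). Adamts14 in both models, and Adamts2 and Loxl4 in adenine, reached 0.5 FPKM in the model rats alone. Their direction there was fixed by being tested. Lox, which makes the first crosslinks between collagen molecules, was at 0.674, 1.72 and 1.29 FPKM in control and 8.46, 11.7 and 12 FPKM in adenine (log2 fold change 3.09, limma adjusted p = 0.000383). It was at 0.857, 0.803 and 0.618 FPKM in sham and 31.2, 18.4 and 16.1 FPKM in UUO (log2 fold change 4.63, limma adjusted p = 2.64e-05). Loxl1, Loxl2 and Loxl4, of the same enzyme family, were upregulated in both models, and Loxl3 had a log2 fold change of 1.16 in adenine, which was not called, and of 2.04 in UUO, which was.

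Of the proteins that sit on or beside fibrils, 10 of 13 tested were upregulated in adenine and 11 of 12 in UUO. The shares over all tested entries were 10.7% and 13.2%. In either model 0 were downregulated, with a median log2 fold change of 2.65 and 3.85. Postn, a matricellular protein that binds collagen, was at 0.645, 0.847 and 0.659 FPKM in control and 20.1, 15.8 and 21.0 FPKM in adenine (log2 fold change 4.55, limma adjusted p = 2.48e-05). In UUO it was at 70.5, 27.7 and 1.60 FPKM against 0.0678 to 0.0902 FPKM in sham (log2 fold change 6.37, SE 1.26, limma adjusted p = 0.00357), so that the UUO rats stood in the same order as for Col1a1 and Col3a1. Col14a1, which lies on the fibril surface, rose in both models (log2 fold change 5.00 and 4.94). Col14a1 in both models, Comp in adenine, and Postn and Lum in UUO reached 0.5 FPKM in the model rats alone. Their direction there was fixed by being tested. The small proteoglycan genes Dcn, Bgn and Lum also rose in both, and Fmod, of the same family, was called in neither (log2 fold change 0.80 in adenine and 1.96 in UUO).

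Of the collagen receptors, 2 of 7 tested were upregulated in adenine and 4 of 8 in UUO, against 10.7% and 13.2% of all tested entries. In either model 0 were downregulated, with a median log2 fold change of 1.27 and 2.09. At an adjusted p under 0.05 and any size, 5 of the 7 were higher in adenine and 7 of the 8 in UUO. For all tested entries these shares were 39.6% and 56.1%. Itga11, the integrin chain that binds fibrillar collagen on fibroblasts, was at 0.247, 0.437 and 0.391 FPKM in control and 1.15, 3.34 and 1.96 FPKM in adenine (log2 fold change 2.20, limma adjusted p = 0.00392). In sham it was at 0.0325, 0.167 and 0.225 FPKM and in UUO at 6.97, 11.6 and 5.13 FPKM (log2 fold change 5.07, limma adjusted p = 0.000102). Itga2 rose in both models (log2 fold change 3.30 and 2.72) from levels near 0. Itga11 and Itga2 reached 0.5 FPKM in the model rats alone. Their direction and lack of overlap were therefore fixed by being tested. Ddr1 and Ddr2, the discoidin domain receptors of collagen, were not called in either model (log2 fold change -0.19 and 0.55 in adenine, -0.038 and 1.65 in UUO).

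Of the genes for fibrillar collagen breakdown and its inhibitors, 8 of 10 tested were upregulated in adenine and 6 of 10 in UUO. Over all tested entries the shares were 10.7% and 13.2%. In either model 0 were downregulated, with a median log2 fold change of 3.55 and 2.84. Ctsk, a cathepsin that cuts triple helical collagen, was at 5.95, 8.51 and 5.94 FPKM in control and 1101, 512 and 693 FPKM in adenine (log2 fold change 6.75, limma adjusted p = 2.61e-05). In sham it was at 4.39, 7.97 and 7.45 FPKM and in UUO at 72.3, 52.1 and 47.1 FPKM (log2 fold change 3.12, limma adjusted p = 8.96e-05). Timp1, an inhibitor of matrix metalloproteinases, rose in both (log2 fold change 4.40 and 4.74). Mmp2 and Mmp14 rose in both as well, and Mmp13 was tested in UUO alone and rose there (log2 fold change 5.56). Mmp13 in UUO and Fap in adenine reached 0.5 FPKM in the model rats alone, which fixed their direction. Mmp9, a gelatinase, rose in adenine (log2 fold change 4.74, limma adjusted p = 0.00335), whereas in UUO every rat was below every sham rat with a log2 fold change of -1.27 (limma adjusted p = 0.0306), under the fold threshold.

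Of the other collagens, 9 of 22 tested were upregulated and 1 was downregulated in adenine, and 14 of 21 were upregulated and 1 was downregulated in UUO, with a median log2 fold change of 1.83 and 2.88. These counts share Col12a1, Col14a1, Col16a1, Col6a1 and Col6a2 with the proteins on or beside fibrils. Of the genes called, some reached 0.5 FPKM in the model rats alone, which fixed their direction. These were Col14a1, Col4a6 and Col8a1 in both models, and Col6a5 and Col7a1 in UUO. Col6a1, of the beaded filaments around fibrils, was at 5.79, 5.88 and 5.44 FPKM in control and 90.4, 106 and 114 FPKM in adenine (log2 fold change 4.15, limma adjusted p = 1.89e-05), and rose by 4.83 in UUO (limma adjusted p = 9.59e-05). Col4a3, a basement membrane chain of the glomerulus, fell in both models, from 9.69, 7.58 and 12.4 FPKM in control to 2.07, 2.37 and 2.28 FPKM in adenine (log2 fold change -2.07, limma adjusted p = 0.000259), and from 19.2, 11.9 and 15.9 FPKM in sham to 3.04, 3.41 and 4.03 FPKM in UUO (log2 fold change -2.12, limma adjusted p = 0.000145).

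**Figure D5:**
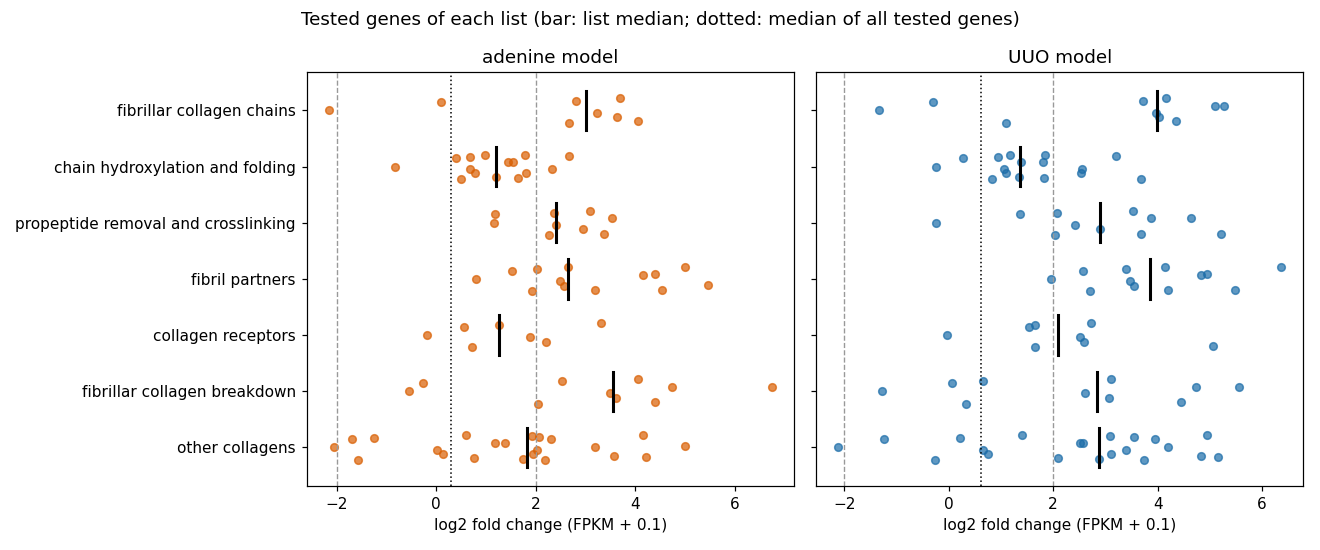
log2 fold change on the log2(FPKM + 0.1) scale of each tested gene (points) of the fibrillar chains and of 6 related gene lists under adenine (left) and UUO (right), with the list median (bar), the median of all tested entries (dotted line, 0.30 and 0.62) and the fold threshold of 2 (dashed lines). The fibrillar chains have a median of 3.02 in adenine and 4.0 in UUO, while Col11a2 lies below the lower dashed line in adenine and the genes for hydroxylation and folding centre on 1.20 and 1.37.

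Markers of cell types were read beside these changes. Of the fibroblast and myofibroblast markers, 7 of 7 were tested. In adenine 3 were upregulated and in UUO 6, against 10.7% and 13.2% of all tested entries. Their summed level was 88.8 to 118 FPKM in control, 353 to 436 FPKM in adenine, 91.5 to 121 FPKM in sham and 1110 to 1985 FPKM in UUO. In adenine Dcn, Postn and Meox1 were called, and Pdgfra, Pdgfrb, Acta2 and Tagln were not (log2 fold change 1.09, 1.53, 0.96 and 1.66). In UUO only Pdgfra was not called (log2 fold change 1.78). The marker list holds Dcn and Postn, which also stand among the proteins on or beside fibrils. Macrophage markers rose in 6 of 6 in both models, against the same 10.7% and 13.2%. Cd163 among them reached 0.5 FPKM in the model rats alone, which fixed its direction. The macrophage sums were 40.3 to 45.7 FPKM in control, 974 to 1308 FPKM in adenine, 46.4 to 58.5 FPKM in sham and 531 to 834 FPKM in UUO. Tubule markers fell in 4 of 7 in adenine and 6 of 7 in UUO, against 5.03% and 4.21% of all tested entries. The tubule sums were 2801 to 3577 FPKM in control, 360 to 597 FPKM in adenine, 3805 to 4601 FPKM in sham and 390 to 532 FPKM in UUO. The labelled kidney tissue was thus recognisable in every sample. Slc12a3, the distal tubule salt transporter, was at 12.9 FPKM in control rat 2, the control rat highest for 6 of the collagens, against 197 and 164 FPKM in the other control rats. The other tubule markers were mixed in that rat. Slc12a1 and Aqp1 were the highest of the control group there (229 and 706 FPKM). Lrp2, Slc34a1 and Umod were the lowest (99.9, 478 and 1207 FPKM), and Aqp2 lay between. For Slc12a3 the adenine group went the other way. Adenine rat 2, the highest of its group for 5 of the 9 collagens, had Slc12a3 at 88.9 FPKM, against 11.5 and 14.8 FPKM in the others. Endothelial markers, 4 of 5 listed, had sums of 68.1 to 76.2 FPKM in control, 27.5 to 39.4 FPKM in adenine, 71.6 to 93.2 FPKM in sham and 126 to 143 FPKM in UUO, with 0 called in adenine and 1 upregulated in UUO. The sums hide members that moved apart. In adenine Emcn (mean 51.0 to 14.8 FPKM) and Tek were lower without overlap, Cdh5 was higher (4.90 to 8.98 FPKM) and Kdr overlapped. In UUO Cdh5 (7.57 to 42.9 FPKM) and Tek were higher, and Emcn and Kdr overlapped. None of these markers was at the lowest listed value in all samples. Their part in the collagen values was not tested.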

How the data were processed

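Kidney poly(A) RNA from 12 rats, in 4 groups of 3, was sequenced on separate libraries, 1 per rat. The authors trimmed the reads, mapped them and deposited FPKM per gene in 2 tables, one for control and adenine and one for sham and UUO. The submitters' processing notes name cutadapt 1.9, HISAT2 2.0.4, StringTie 1.3.4d, edgeR and DESeq2, and the genome build was not given in the sources used here. The FPKM sums were 468389 to 582725 and 528811 to 630244, no 2 columns were identical, and the read depth is unknown, so FPKM gave no counting interval. The tables were normalized separately, so changes were taken within a table.

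Entries with FPKM of at least 0.5 in 3 of 6 samples were fitted with limma 3.58.1 (R 4.3.3, trended eBayes) on log2(FPKM + 0.1), with Benjamini-Hochberg adjustment over all tested entries, and the fit was tested on simulated data. The difference between models was divided by the root of its summed squared SE and read against a t distribution with summed degrees of freedom. Ratios took exact permutation tests (scipy 1.17.1). The plan had 8 ratio tests and 7 were run, because Col1a2 was in 1 table. Members, gene lists and markers were chosen with earlier results of these data known. Named genes were all 10 members, Col27a1, per list up to 2 genes with the largest mean rise among those called in both models and up to 3 that fell, and the 5 profiles nearest to Col1a1, of which 1 is not reported here. Other genes named in the text were singled out after their values were seen. Alternatives changed the pseudocount, filter, scaling, thresholds, block and samples.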

Additional observations from a re-analysis of the deposited data

Results flagged for a closer look

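By a t test of the difference itself, the UUO log2 fold change of Col11a2 exceeded that of adenine by 1.87 (adjusted p = 0.0304). That of Col5a1 did so by 1.16 (same test, adjusted p = 0.0184). These are 2 of 8 chains, near the 27% of all genes that passed that test at any size. Neither call held under quantile scaling or without rat 1 of the UUO group. For Col2a1 every adenine rat was above every control rat (log2 ratio of mean FPKM 3.41) and every UUO rat was below every sham rat (log2 ratio of mean FPKM -1.33), and this difference was not tested.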

How the results depend on the processing

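With a pseudocount of 1, all DEGs numbered 1320 in adenine and 1465 in UUO, against 2360 and 2613, and without a fold threshold 8934 and 10606. Downregulated chains in adenine were 0 with a pseudocount of 1 and with equal FPKM sums (0 to 1 with 1 rat left out, 0 without control rat 3 or adenine rat 2), and in UUO 1 under quantile scaling and without a fold threshold. Genes for hydroxylation and folding called in adenine were 1 with a pseudocount of 1, 1 under quantile scaling, 4 with equal sums and 14 without a fold threshold (1 to 3 with 1 rat left out), and in UUO 2 under median-of-ratios scaling, 7 with equal sums and 14 without a fold threshold. Collagen receptors called in adenine were 0 with a pseudocount of 1, 1 with a minimum FPKM of 1, 1 under median-of-ratios and 1 under quantile scaling and 5 without a fold threshold (1 to 3 with 1 rat left out), and in UUO 2 with a pseudocount of 1, 2 with a minimum FPKM of 1, 1 under quantile scaling and 7 without a fold threshold. Other collagens called in adenine were 5 with a pseudocount of 1 and 17 without a fold threshold. Chains whose change differed between the models by at least 2 numbered 0 to 2 with 1 rat left out. Those differing at any size numbered 4 with a pseudocount of 1 and 0 to 4 with 1 rat left out. They numbered 0 under quantile scaling and 0 under median-of-ratios scaling. Under the latter Col11a2 was not tested in UUO, so its difference could not be called. The log2 fold change of Col11a1 in adenine was -0.18 under median-of-ratios scaling, -0.48 under quantile scaling and -0.23 to 0.58 with 1 rat left out. That of Col27a1 in UUO was -0.57 under median-of-ratios scaling, -0.77 under quantile scaling, -0.025 as a ratio of means and -0.24 to 0.16 with 1 rat left out. The difference between models for Col5a3 was -0.17 with a pseudocount of 1 and -0.39 to 1.03 with 1 rat left out. The cause of these changes was not tested, and the unknown read depth limits what the low chains can show.

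With the replicate number as a block, the chains called numbered 6 upregulated and 1 downregulated in adenine, and 7 and 0 in UUO, and all DEGs numbered 2352 and 2609. The block changed no call of a chain. The numbers name different rats, and same-numbered rats did not deviate together (r of -0.077, -0.12 and -0.049 in adenine, 0.050, 0.11 and 0.059 in UUO), although in UUO each rat correlated best with its own number.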
